A study of Rattus norvegicus with 8 samples.

Results

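Bdnf, the Trk receptor genes Ntrk2 and Ntrk3, the p75 receptor gene Ngfr, Arc, and the neuronal pentraxin genes Nptx1, Nptx2 and Nptxr were followed across somata and processes of rat hippocampal neurons. These 8 genes were taken from the deposited count table by symbol, out of 28909 symbols, and all 8 had enough reads to be tested. Embryonic hippocampal neurons of Sprague-Dawley rats had been grown on porous inserts, so that RNA of the somata could be collected from the upper side and RNA of the processes (axons and dendrites) from the lower side. Picrotoxin (PTX), which blocks the GABA-A receptor and raises network activity, or vehicle was present for 48 h, from day in vitro (DIV) 18 to DIV 20. The 4 conditions were somata control, somata PTX, processes control and processes PTX, each with 2 libraries of ribosome-depleted total RNA. All groups were the same strain and culture type and differed in compartment and treatment. The labels do not say whether the replicates came from separate preparations, so that p-values measure the spread between these libraries.

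Bdnf encodes brain-derived neurotrophic factor, a secreted ligand that is made as a precursor, cleaved to its mature form and bound by the TrkB receptor, the product of Ntrk2. Ntrk3 encodes TrkC, the receptor for neurotrophin-3, while Ngfr encodes p75, which binds neurotrophins and, together with sortilin, their uncleaved precursors. Arc is an immediate early gene whose mRNA travels into dendrites and whose protein promotes the removal of AMPA-type glutamate receptors from synapses. Nptx1 and Nptx2 encode secreted pentraxins that gather AMPA receptors at excitatory synapses, and Nptxr encodes their membrane-bound relative. Bdnf, Arc and Nptx2 are known as genes that neurons transcribe more when they are active.

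Bdnf and Nptx2 rose under PTX in both compartments, and upstream sequence from RefSeq (build GRCr8, which is not the Rnor_6.0 build of the counts) was at hand for these 2 of the 8 genes. It covered 6 annotated starts of Bdnf, in windows of 250 bases that end just before the start, and 1 start of Nptx2. The windows of Bdnf starts 5 and 6 overlap, so that the 6 are not all separate sequence. The count table holds 1 value per gene, so that reads cannot be assigned to a Bdnf start. The windows were searched on both strands for TGACG, the core of the cAMP response element, and for TGANTCA, the AP-1 element. TGACG was found in 1 of the 6 Bdnf windows and in the Nptx2 window, and 18.2% of all 33469 RefSeq windows of this length hold it. TGANTCA was found in 1 Bdnf window, against 6.34% of all windows. The 3 windows with a match are printed because they belong to the pair of genes that rose in both compartments, 5′ to 3′ on the strand of the gene, with the match in capitals. The first lies upstream of Bdnf start 4 at chr3:116637608-116637857 (+ strand), where TGACG is on the opposite strand, 35 to 31 bases before the start. The next lies upstream of Bdnf start 3 at chr3:116621721-116621970 (+ strand), with TGANTCA at 152 to 146 bases before the start. The last lies upstream of Nptx2 at chr12:15162046-15162295 (− strand), with TGACG at 90 to 86 bases before the start. Such matches describe letters in these windows only.
Bdnf, start 4: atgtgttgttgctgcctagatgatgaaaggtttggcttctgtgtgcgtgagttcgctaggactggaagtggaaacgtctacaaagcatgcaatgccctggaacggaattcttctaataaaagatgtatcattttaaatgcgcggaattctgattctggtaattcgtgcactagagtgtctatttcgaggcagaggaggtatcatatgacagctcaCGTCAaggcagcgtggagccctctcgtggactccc
Bdnf, start 3: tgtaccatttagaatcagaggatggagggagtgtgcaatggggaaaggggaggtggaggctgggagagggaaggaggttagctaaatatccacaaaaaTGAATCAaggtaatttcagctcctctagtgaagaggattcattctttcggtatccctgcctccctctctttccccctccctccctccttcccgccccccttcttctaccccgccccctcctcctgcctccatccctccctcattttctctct
Nptx2: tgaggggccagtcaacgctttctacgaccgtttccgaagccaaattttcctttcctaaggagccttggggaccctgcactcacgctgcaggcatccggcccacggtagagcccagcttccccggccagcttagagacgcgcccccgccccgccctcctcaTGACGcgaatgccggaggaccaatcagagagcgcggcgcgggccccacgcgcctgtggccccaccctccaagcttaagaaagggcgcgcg

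Library totals ranged from 12290890 to 14520831 counts in somata and from 15120334 to 18455662 in processes. Mitochondrial genes took 22.56% to 26.71% of the counts in somata and 68.52% to 72.52% in processes, which left 9517542 to 11227599 and 4702054 to 5491237 counts for all other genes. A median tested gene had 268 to 319 reads per somata library and 96 to 110 per processes library, so that values are less precise in processes. Levels below are counts per 1e6 reads (CPM) after scaling with edgeR's TMM factors, and differences are log2 fold changes from edgeR's quasi-likelihood test over 14309 genes, called at a Benjamini-Hochberg adjusted p under 0.05. The replicate numbers were taken to pair the libraries across conditions, though the labels give only the numbers. For the 8 genes the value from the fit with a replicate block, which rests on this pairing, is given wherever it changed a call.

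Markers of other cells were present in these neuron cultures. The summed level of 8 astrocyte markers, all of them detected, was 3679 to 4106 CPM in somata control, 2779 to 3827 in somata PTX, 12740 to 14296 in processes control and 10831 to 12112 in processes PTX. Gfap (log2 fold change 2.60) was among the 4 of 8 that were higher in processes than in somata of control cultures, while 2 were lower. The 9 oligodendrocyte lineage markers summed to 309 to 538 CPM in somata and 514 to 701 in processes. Microglial markers summed to at most 1.91 CPM in any library, with Cx3cr1 at 0 in all processes libraries, and the endothelial marker Cldn5 had no read in any library. The 4 endothelial markers in the table summed to 2.78 to 4.38 CPM in somata control, 8.09 to 8.99 in somata PTX and 1.78 to 3.79 in processes. Kdr held most of that sum, with 82 and 59 reads in somata control and 226 and 171 in somata PTX. Flt1 and Cdh5 had at most 13 reads in any library. The 6 general neuron markers summed to 1309 to 1621 CPM in somata and 3664 to 5145 in processes, a sum led by the dendritic marker Map2 (936 CPM in somata control and 4609 in processes control). In control cultures 2 of the 6 were called higher in processes and 3, namely Syp, Tubb3 and Snap25, lower, with a median of -0.47. The 7 interneuron markers summed to 239 to 339 CPM in somata control, 415 to 544 in somata PTX, 135 to 174 in processes control and 219 to 286 in processes PTX. Of the 6 tested, only Gad2 (log2 fold change 0.92) and Gad1 (0.82) were called higher under PTX in somata, and only Gad2 (0.92) in processes. Slc32a1 differed by -0.02 in somata and 0.16 in processes, and Sst by 0.31 and 0.28, none of them called. The 7 excitatory neuron markers went from 440 to 457 CPM in somata control to 294 to 316 in somata PTX, and from 747 to 1002 in processes control to 533 to 534 in processes PTX. Camk2a and Neurod6 were called lower in both compartments, while Slc17a7 was called higher in processes (0.73). The part of these cells in the results below was not tested, and in bulk RNA fewer cells of a type and less RNA per cell cannot be told apart.

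Bdnf rose under PTX in both compartments. Its level was 52.1 and 33.3 CPM in the 2 somata control libraries and 180 and 174 CPM in the 2 somata PTX libraries. In processes it was 12.8 and 12.6 CPM in control and 49.7 and 44.7 CPM under PTX. Every PTX library lay above both control libraries of its compartment, and the lower of the 2 somata control libraries fell below both processes PTX libraries. Bdnf rose 4.15-fold in somata (log2 fold change 2.05 ± 0.17 SE, adjusted p = 0.000216) and 3.72-fold in processes (1.89 ± 0.20, adjusted p = 0.00219). By size of rise it ranked 38 of 14309 genes in somata and 47 in processes. Its order with Nptx2 in somata was not stable, since without somata control replicate 2 the log2 fold change of Bdnf was 1.75 and that of Nptx2 1.91. The order of its mean levels was somata PTX (177 ± 4.77 CPM, SD, n = 2), processes PTX (47.2 ± 3.52), somata control (42.7 ± 13.3) and processes control (12.7 ± 0.182), of which processes PTX and somata control overlapped.

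Bdnf mRNA was scarcer in processes than in somata under either treatment. The log2 difference was -1.75 ± 0.20 in control cultures (adjusted p = 4.82e-05) and -1.91 ± 0.18 in PTX cultures (adjusted p = 1.12e-05). Raw reads behind these values were 115 and 107 in the processes control libraries, against 1226 and 851 in somata control. Within replicates 1 and 2 the PTX difference was 1.79 and 2.38 in somata and 1.95 and 1.82 in processes.

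**Figure D1:**
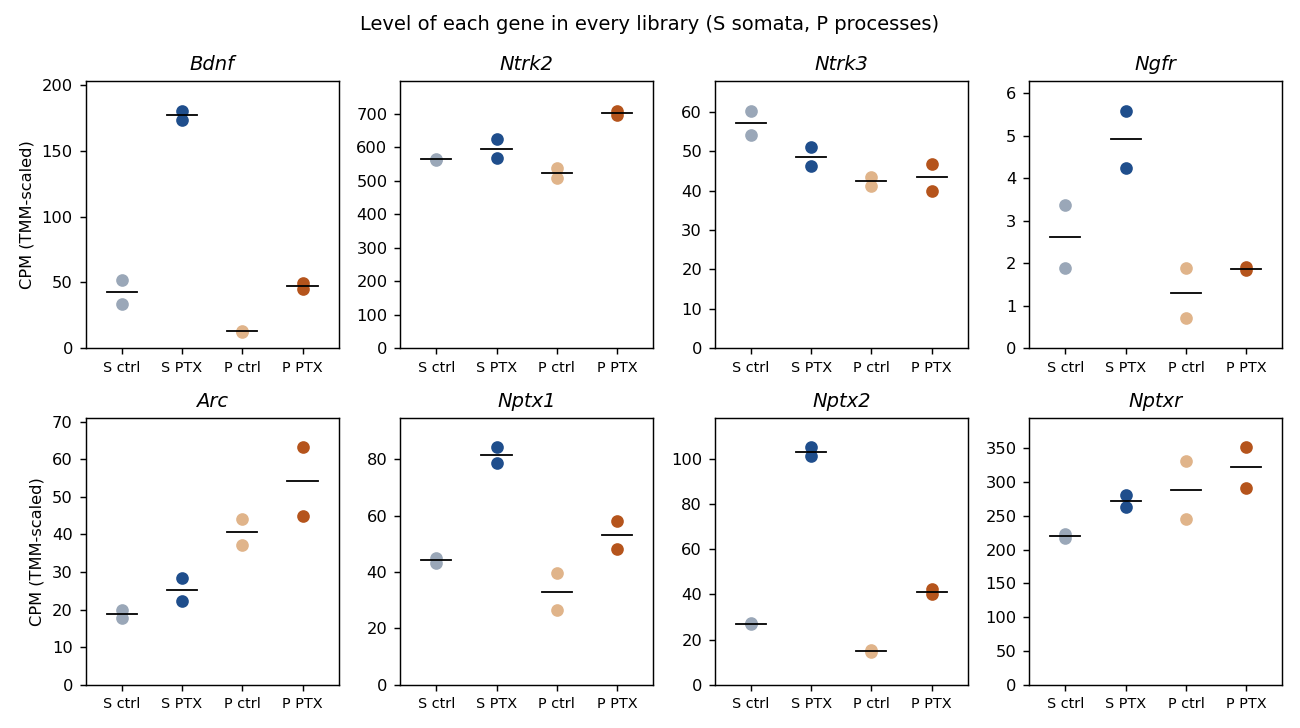
Level of each gene in CPM after TMM scaling (y axis, linear from 0, scale differs by panel) in the 8 libraries, by condition (x axis: S somata, P processes, ctrl control). Points are libraries and lines the mean of 2, and the PTX points of Bdnf and Nptx2 lie above the control points of the same compartment without overlap.

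By edgeR's quasi-likelihood test, with the filter on low counts and no replicate block, no receptor gene was called for PTX in either compartment. Ntrk2 was at 562 and 566 CPM in somata control, 567 and 625 in somata PTX, 538 and 509 in processes control, and 710 and 697 in processes PTX. The 2 processes PTX libraries were the highest of the 8, and no neighbouring conditions in the order processes PTX, somata PTX, somata control, processes control overlapped. The PTX difference was 0.43 ± 0.11 on the log2 scale in processes (adjusted p = 0.0714) and 0.08 ± 0.11 in somata (adjusted p = 0.838). With the replicate block the difference in processes passed (adjusted p = 0.00375), as it did with the likelihood ratio test, DESeq2 and no filter on low counts. Between compartments Ntrk2 differed by -0.11 ± 0.11 in control cultures (adjusted p = 0.458) and by 0.24 ± 0.11 in PTX cultures (adjusted p = 0.103, and 0.0335 with the block).

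Ntrk3, the TrkC gene, had its highest levels in somata control, at 60.3 and 54.1 CPM. It was at 51.0 and 46.2 CPM in somata PTX, 43.4 and 41.2 in processes control, and 46.8 and 39.9 in processes PTX. The last 3 conditions overlapped with their neighbours in order. PTX differences were -0.23 ± 0.12 in somata (adjusted p = 0.381) and 0.03 ± 0.13 in processes (adjusted p = 0.936). Ntrk3 was lower in processes than in somata of control cultures (-0.43 ± 0.12, adjusted p = 0.0130), a call that was lost without somata control replicate 1 or processes control replicate 2 (highest adjusted p = 0.0964). In PTX cultures the difference was -0.17 ± 0.12 (adjusted p = 0.275).

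Ngfr had the fewest reads of the 8 genes, with 48 to 132 per somata library and 6 to 19 per processes library. Its level was 3.36 and 1.88 CPM in somata control, 4.24 and 5.59 in somata PTX, 1.90 and 0.705 in processes control, and 1.84 and 1.91 in processes PTX. Somata PTX stood above the other conditions, which overlapped with their neighbours. The PTX difference in somata was 0.91 ± 0.32 (adjusted p = 0.186, and 0.0117 with the replicate block), at 0.33 in replicate 1 and 1.51 in replicate 2. That difference also passed with no filter on low counts. In processes it was 0.51 ± 0.52 (adjusted p = 0.689), at -0.04 and 1.30. Ngfr was lower in processes than in somata of PTX cultures (-1.38 ± 0.39, adjusted p = 0.0131), but the call was lost without somata PTX replicate 2, processes PTX replicate 1 or processes PTX replicate 2 (highest adjusted p = 0.0657). In control cultures the difference was -0.99 ± 0.45 (adjusted p = 0.0920, and 0.0402 with the block).

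Arc was called higher in processes than in somata after TMM scaling, though not by library size alone. It was at 17.6 and 19.8 CPM in somata control, 22.3 and 28.3 in somata PTX, 44.2 and 37.1 in processes control, and 45.0 and 63.1 in processes PTX. No neighbouring conditions overlapped in the order processes PTX, processes control, somata PTX, somata control, although the lower processes PTX library and the higher processes control library lay close together. After TMM scaling Arc was 2.17-fold higher in processes than in somata of control cultures (log2 fold change 1.12 ± 0.18, adjusted p = 0.000551) and 2.15-fold higher in PTX cultures (1.10 ± 0.18, adjusted p = 0.000466), whereas scaling by library size alone turned the values to -0.70 and -0.71. That scaling moved the median of all tested genes from -0.05 to -1.86 in control cultures and from -0.05 to -1.87 in PTX cultures, and Arc stayed above the median.

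With the filter on low counts and no replicate block, Arc was not called for PTX in either compartment. The difference was 0.43 ± 0.18 in somata (adjusted p = 0.257) and 0.41 ± 0.18 in processes (adjusted p = 0.278). With the replicate block the adjusted p was 0.0212 in somata and 0.0491 in processes. The somata difference also passed with no filter on low counts. The replicates were unequal in processes, with a PTX difference of 0.03 in replicate 1 and 0.76 in replicate 2, and less so in somata, with 0.33 and 0.51.

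**Figure D2:**
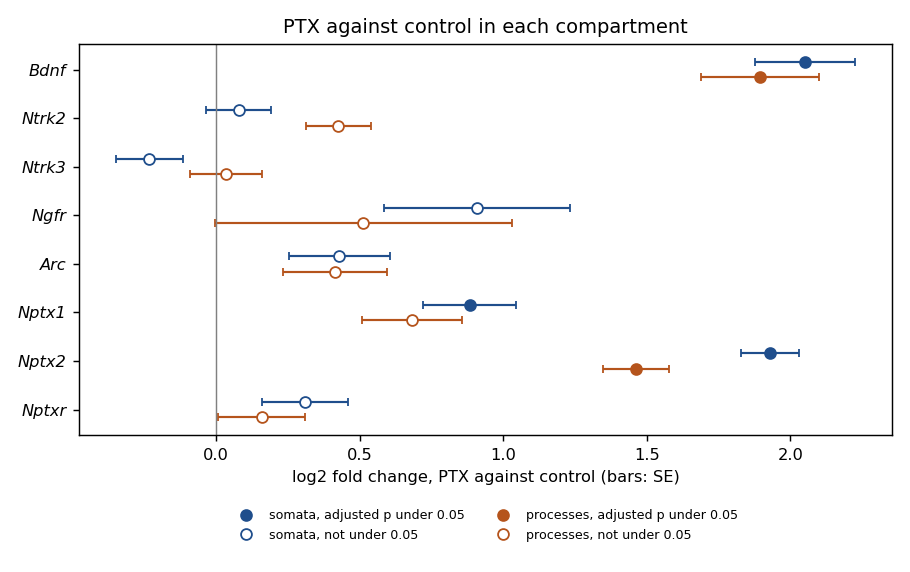
Log2 fold change of PTX against control (x axis) for each gene (y axis) in somata (blue) and processes (orange), with bars of 1 SE from the fit over 8 libraries. Filled points have an adjusted p under 0.05, which holds for Bdnf and Nptx2 in both compartments and for Nptx1 in somata.

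Nptx2 rose under PTX in both compartments, with replicates close together. Its level was 27.2 and 26.9 CPM in somata control and 105 and 101 in somata PTX, and in processes 15.2 and 14.6 in control and 42.1 and 39.9 under PTX. No library overlapped with another condition, in the order somata PTX, processes PTX, somata control, processes control. Nptx2 rose 3.81-fold in somata (log2 fold change 1.93 ± 0.10, adjusted p = 9.56e-06) and 2.76-fold in processes (1.46 ± 0.12, adjusted p = 0.000384). Within replicates 1 and 2 the values were 1.94 and 1.91 in somata, and 1.47 and 1.45 in processes. It ranked 42 by size of rise in somata and 116 in processes. Nptx2 was lower in processes than in somata by -0.86 ± 0.11 in control cultures (adjusted p = 0.000127) and by -1.33 ± 0.10 in PTX cultures (adjusted p = 2.94e-06).

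Nptx1 rose under PTX in somata, where it went from 45.1 and 43.2 CPM in control to 84.2 and 78.6 CPM. This was a 1.84-fold rise (log2 fold change 0.88 ± 0.16, adjusted p = 0.0134), and the call was lost without somata control replicate 1, somata control replicate 2 or somata PTX replicate 1 (highest adjusted p = 0.123), while the difference stayed between 0.82 and 0.92. In processes Nptx1 was at 39.7 and 26.4 CPM in control and at 58.2 and 48.1 under PTX, without overlap. The difference there was 0.68 ± 0.17 (adjusted p = 0.0608), and it passed with the replicate block (adjusted p = 0.000329). Nptx1 was lower in processes than in somata of PTX cultures (-0.62 ± 0.16, adjusted p = 0.00957), a call lost without processes PTX replicate 2 (adjusted p = 0.0833). In control cultures the difference was -0.42 ± 0.17 (adjusted p = 0.0654, and 0.00271 with the block).

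Nptxr, the pentraxin receptor gene, was at 223 and 217 CPM in somata control, 281 and 263 in somata PTX, 330 and 245 in processes control, and 351 and 292 in processes PTX. The 2 processes control libraries spanned the somata PTX range and reached into the processes PTX range, and somata control was below all of them. The PTX difference was 0.31 ± 0.15 in somata (adjusted p = 0.367, and 0.0388 with the block) and 0.16 ± 0.15 in processes (adjusted p = 0.671). Processes and somata differed by 0.39 ± 0.15 in control cultures (adjusted p = 0.0542, and 0.00263 with the block) and by 0.24 ± 0.15 in PTX cultures (adjusted p = 0.210, and 0.0472 with the block). Scaling by library size alone turned the last values to -1.43 and -1.59.

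For PTX in somata 3 of the 8 members were called, all higher, where 3.59% of all tested genes were called, 2.09% higher and 1.5% lower. For PTX in processes 2 of 8 were called, both higher, against 3.74% of all genes, 1.64% higher and 2.1% lower. The replicate block raised these counts to 6 and 5 members, where it called 14% and 11.2% of all tested genes. The 2 PTX groups did not overlap with control for 8 of 8 members in somata, against 49% of all genes, and for 5 of 8 in processes, against 42.4%. Of the 8 in somata, Ntrk3 was lower under PTX, and for Ntrk2 the nearest control and PTX libraries were at 566 and 567 CPM. The median log2 fold change of the members was 0.66 in somata and 0.47 in processes, beside -0.01 over all tested genes in either compartment.

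Between compartments 4 members were called in control cultures, 1 higher and 3 lower in processes, where 47.7% of all genes were called, 25.8% higher and 21.9% lower. In PTX cultures 5 were called, 1 higher and 4 lower, against 49.8% of all genes, 25.7% higher and 24% lower. The compartments did not overlap for 7 of 8 members in control cultures and 7 of 8 in PTX cultures, against 74.9% and 75.9% of all genes.

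Whether PTX acted differently in processes than in somata was tested as an interaction (log2 fold change in processes less that in somata), which was not called for any member (adjusted p = 0.999993 for each, edgeR's quasi-likelihood test) nor for any of the 14309 genes (0% called). At an unadjusted p under 0.05 it was 1 of the 8 members and 572 genes (4%), and the likelihood ratio test and DESeq2 each called 4 genes, none of them a member. That member was Nptx2, whose rise was smaller in processes by -0.47 ± 0.15 on the log2 scale (unadjusted p = 0.0109). For Ntrk2 the interaction was 0.35 ± 0.16 (unadjusted p = 0.0543) and for Bdnf -0.16 ± 0.27.

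**Figure D3:**
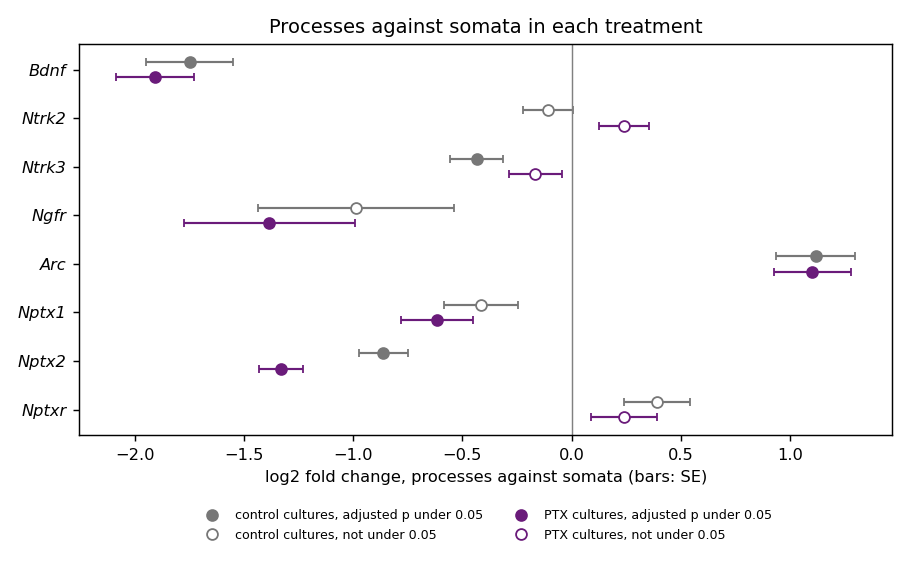
Log2 fold change of processes against somata after TMM scaling (x axis) for each gene (y axis) in control (grey) and PTX cultures (purple), with bars of 1 SE. Filled points have an adjusted p under 0.05, with Arc the one filled point above 0 (scaling by library size alone turned Arc to -0.70 and -0.71) and Bdnf and Nptx2 below 0 in both.

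Of 14 further neurotrophin ligands, receptors and processing enzymes 11 were tested, and 1 rose in somata while 2 rose in processes, where 2.09% and 1.64% of all genes were called higher. The one called in somata was Mmp9 (3.46 ± 0.52, adjusted p = 0.00519), a secreted protease at a mean of only 0.611 CPM. Mmp9 differed by 3.74 ± 0.96 in processes (adjusted p = 0.0620, and 0.0209 with the replicate block). The ones in processes were Sort1, which encodes the p75 partner sortilin (0.93 ± 0.11, adjusted p = 0.00336), and Plat, which encodes tissue plasminogen activator (0.92 ± 0.21, adjusted p = 0.0379). Sort1 differed by -0.32 ± 0.11 in somata (adjusted p = 0.166, and 0.0134 with the replicate block), and with the block its interaction was called (1.25 ± 0.13, adjusted p = 1.24e-05). None of 42 tested adaptors and kinases of Trk and p75 signalling was called in either compartment, and their medians were -0.05 in somata and -0.05 in processes. With the block 6 neurotrophin genes were called in somata (4 higher, 2 lower) and 4 in processes (all higher). Of the 42 signalling genes it called 6 in somata (2 higher, 4 lower) and 3 in processes (1 higher, 2 lower). Of all tested genes it called 14% and 11.2%.

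Of 19 tested transcription regulators of Bdnf, 2 rose in somata, and in processes 2 rose and 1 fell. Of all tested genes 2.09% were called higher in somata, and in processes 1.64% higher and 2.1% lower. Npas4, an activity-induced transcription factor, rose in somata (1.74 ± 0.17, adjusted p = 0.000540) and in processes (1.97 ± 0.25, adjusted p = 0.00392). The repressor gene Bhlhe40 rose as well, with 0.75 ± 0.16 in somata (adjusted p = 0.0258) and 0.88 ± 0.19 in processes (adjusted p = 0.0283). Crtc1, a CREB coactivator, was lower in processes (-0.81 ± 0.20, adjusted p = 0.0473) and differed by -0.28 ± 0.19 in somata (adjusted p = 0.562). The medians of the list were -0.10 in somata and -0.11 in processes. With the replicate block Camk4 was also called in somata (-0.57 ± 0.15, adjusted p = 0.0103) and Mef2c in processes (-0.45 ± 0.11, adjusted p = 0.00671).

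All 14 other activity-regulated effector genes, a list written with earlier results of these data known, were tested. Of these 11 were called higher in somata and 6 in processes, and none lower, with medians of 1.11 and 0.95. Of all tested genes 2.09% and 1.64% were called higher. With the replicate block 13 were called higher in somata and 9 in processes, where it called 14% and 11.2% of all tested genes. In somata the largest rises were in Serpinb2 (3.85 ± 0.42), Inhba (3.15 ± 0.35), which encodes a subunit of activins, Vgf (1.92 ± 0.29), a neuropeptide precursor gene, and Scg2 (1.71 ± 0.14), which encodes a secretogranin. Serpinb2 and Inhba were at a mean of only 0.27 and 0.68 CPM in somata control. Among the genes called in processes the largest rises were in Vgf (1.77 ± 0.35), Scg2 (1.67 ± 0.15), Plk2 (1.11 ± 0.25), which encodes a kinase, and Rgs2 (0.96), a regulator of G protein signalling. Also high there but not called were Serpinb2 (3.33 ± 1.06, adjusted p = 0.127, and 0.0491 with the block) and Tnfaip6 (1.70 ± 0.60, adjusted p = 0.175).

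Among 14 partners of the Arc protein, 1 was called lower under PTX in somata and 2 in processes, and none higher. Of all tested genes 1.5% and 2.1% were called lower. Wasf1, an actin regulator, fell in somata (-0.72 ± 0.13, adjusted p = 0.0141) and in processes (-0.90 ± 0.15, adjusted p = 0.0102). Cacng2, which encodes the AMPA receptor auxiliary subunit stargazin, fell in processes (-1.11 ± 0.19, adjusted p = 0.0132) and differed by -0.67 ± 0.18 in somata (adjusted p = 0.0746, and 0.00642 with the replicate block). Of 11 pentraxin relatives and partners 8 were tested, and the 1 called in somata was the AMPA receptor subunit gene Gria1, which fell (-0.53 ± 0.12, adjusted p = 0.0301). In processes none of the 8 was called. With the replicate block 4 and 3 Arc partners were called, all lower. Of the pentraxin partners it called 5 in somata (2 higher, namely C1ql2 and C1ql3, and 3 lower) and 2 in processes (C1ql2 higher and Gria1 lower). The block called 14% and 11.2% of all tested genes.

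**Figure D4:**
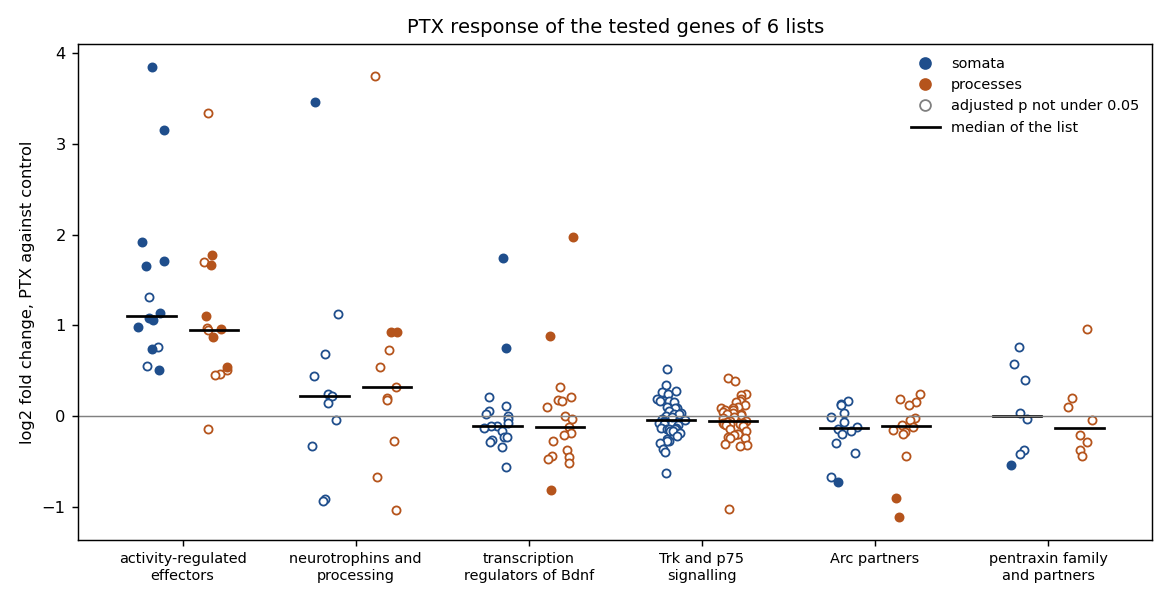
Log2 fold change of PTX against control (y axis) for each tested gene of 6 lists (x axis) in somata (blue) and processes (orange). Filled points have an adjusted p under 0.05 and lines are medians, which for the activity-regulated effectors lie at 1.11 and 0.95 and for the signalling genes at -0.05.

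Between compartments of control cultures the lists were read against the 25.8% of all genes that were called higher in processes and the 21.9% called lower. Values are after TMM scaling, and scaling by library size alone moved the median of all genes to -1.86. Of the 42 signalling genes 22 were higher in processes and 5 lower, with a median of 0.39 beside -0.05 over all genes. The largest differences were in Shc3 (2.55 ± 0.14), an adaptor of Trk receptors, Ptpn11 (2.09 ± 0.15), a phosphatase gene, and Frs2 (1.77 ± 0.14), another Trk adaptor. All 5 called of 8 pentraxin partners were lower in processes, led by C1ql2 (-1.47 ± 0.28), Gria2 (-1.16 ± 0.11) and Gria3 (-0.85 ± 0.15). Among the 11 neurotrophin genes 1 was higher and 5 lower, with Pcsk1 at -1.995 ± 0.49, Ntf3, the ligand of TrkC, at -1.85 ± 0.33, and Cpe at 1.56 ± 0.18. Among the 19 Bdnf regulators 5 were higher and 3 lower, with Npas4 at -2.74 ± 0.23, Crtc1 at 1.41 ± 0.19 and Usf2 at 1.33 ± 0.12. Among the 14 Arc partners 2 were higher and 2 lower (4 and 4 with the replicate block), with Cacng2 at 1.16 ± 0.18, and among the 14 effectors 1 was higher and 7 lower, led by Rasl11b (-1.70 ± 0.19).

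For each member the most similar profiles were sought among the 10201 genes whose mean was 5 CPM or more, by the root mean square distance of log2 CPM, centred on each gene's mean, over the 8 libraries. Nearest to Bdnf were Penk (distance 0.293), a neuropeptide precursor gene, Scg2 (0.305) and the immediate early gene Fos (0.32). Nearest to Nptx2 were Nfil3 (0.165), Scg2 (0.2) and Pam (0.233), which encodes a peptide-amidating enzyme. Nearest to Arc were Mt1 (0.108), Mybl2 (0.127) and Tmem256 (0.135), and nearest to Nptx1 were Soat1 (0.126), Sgtb (0.131) and Gramd1a (0.132). Ngfr was nearest to Kcnf1 (0.278) and Camk1g (0.298), and Ntrk2 to AABR07025010.1 (0.0749), LOC361346 (0.0764) and Rpap1 (0.0791). Ntrk3 was nearest to RGD1304567 (0.055), Nhlrc3 (0.0575) and Agbl5 (0.0589), and Nptxr to Sh3rf1 (0.0557), Tmem254 (0.0574) and Dpcd (0.0785). Distances are small for genes that vary little, so they rank neighbours of 1 member and are not to be set against those of another.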

How the data were processed

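Per the labels and the study's methods, rat hippocampal RNA was ribosome-depleted, made into directional libraries and counted per Ensembl gene with featureCounts on Rnor_6.0; the methods name Subread as aligner and the submitters' processing notes STAR, and the strand setting of counting is not given in the sources used here. The authors deposited whole-number read counts summed by gene symbol, without normalization, so that gene copies sharing a symbol, overlapping genes and antisense genes cannot be separated. Deposited tables of the authors' PTX comparisons (fold changes, p-values) were not used.

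A gene was tested if its reads exceeded 20 in 2 or more libraries (14309 genes), and all 8 libraries were fitted with edgeR 4.0.16 in R 4.3.3 (TMM, 1 coefficient per condition, glmQLFit, glmQLFTest, Benjamini-Hochberg over all genes). SE is the log2 fold change over the root of F, and profiles used a prior count of 2. The members and lists were chosen with earlier results of these data known. Named were all members, per list the called genes with the largest change (at most 4 per PTX contrast and 3 between compartments), and 3 similar profiles per member, of which 1 is not reported here.

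Replicates 1 and 2 differed across genes in a correlated way (r = 0.54 for the 2 somata conditions, 0.274 to 0.367 for other pairs of conditions), so the numbers were taken to pair the libraries; the labels give only the numbers. Replicate pairs differed by more than sampling noise (chi-square per degree of freedom at least 9.11). Other settings tried were DESeq2 1.42.0, the likelihood ratio test, other scalings and filters, fewer libraries and the block. The test was tested on simulated data: p-values of unchanged genes were near their nominal rate, but where spread varied from gene to gene the share of false calls could exceed the threshold, mostly at genes of high dispersion. By dispersion among tested genes Nptx2 stood at percentile 1.92, Nptx1 at 58.6, Bdnf at 67.4 and Ngfr at 94.4.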

Additional observations from a re-analysis of the deposited data

How the results depend on the processing

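Bdnf and Nptx2 kept their PTX calls in both compartments under all alternatives and with each library left out. The number of members called for PTX in somata (3) was 5 with no filter on low counts and 6 with the replicate block. For PTX in processes (2) it was 4 with the likelihood ratio test, DESeq2 or no filter, and 5 with the replicate block. Between compartments of control cultures (4) it was 7 with the likelihood ratio test, upper quartile scaling, no filter or the block, and 8 with scaling by library size only, which also gave 8 in PTX cultures (5). With 1 library left out these counts ranged from 2 to 3, 2 to 3, 3 to 6 and 3 to 5 (3 without processes PTX replicate 2), and the interaction stayed at 0. The replicate block lowered the common dispersion from 0.0132 to 0.00459 and cost no member its call.

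Scaling by library size only reversed the difference between compartments for Arc (-0.70 in control, -0.71 in PTX cultures), Nptxr (-1.43 and -1.59) and, in PTX cultures, Ntrk2 (-1.59), with a median of all genes of -1.86 and -1.87. Upper quartile scaling gave an interaction of 0.011 for Arc. With 1 library left out, PTX differences in processes changed sign for Ntrk3 (-0.084 to 0.15), Ngfr (-0.015 to 1.40) and Nptxr (-0.039 to 0.39), none of them called, and so did interactions of Arc (-0.28 to 0.21), Bdnf (-0.51 to 0.14), Ngfr (-0.92 to 0.49), Nptx1 (-0.46 to 0.12) and Nptxr (-0.35 to 0.080).

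Over all genes, 513 were called for PTX in somata and 535 in processes, against 972 and 949 with the likelihood ratio test, 1141 and 1129 with no filter, 2002 and 1601 with the block, and 117 to 568 and 97 to 478 with 1 library left out (lowest without somata control replicate 2 and processes control replicate 1). In processes the 4 libraries compared gave 298 alone. Library size only gave 13462 and 13499 genes between compartments, against 6823 and 7121. Apart from what a scaling or filter changes by construction, the cause was not tested. Where a condition was left with 1 library, it was assumed to vary like the others. The interaction could not be fitted with 4 libraries, and Ngfr had no value with at least 10 reads required in every library. With 2 libraries per condition and fewer reads in processes, small differences there are not detectable at this depth.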
